A study of Mus musculus with 6 samples.

Results

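The axon guidance ligands and receptors were followed in messenger RNA from mouse prefrontal cortex, collected on postnatal day 28 from the C57BL/6J strain. There were 3 wild-type samples (WT) and 3 titled Hetero, whose genotype is given as Cyfip2 mutant. The labels do not say which part of Cyfip2 is altered, and whether each sample is a separate animal is not stated there. The p-values therefore rest on the spread among these samples alone, which may be technical. The members are defined by symbol and mean level: they are the semaphorins, plexins, neuropilins, ephrins, Eph receptors, netrins 1 and 4, netrin-Gs, netrin receptors (Dcc, Neo1 and the Unc5 genes), Slits and Robos that are protein coding and averaged 10 or more normalized counts over the 6 samples. Of 70 symbols that match, 68 reached this mean, 34 ligands and 34 receptors, out of 14969 genes tested. The 2 below the minimum were Efna4 (mean 7.03) and Epha1 (mean 4.09), and the lowest members were Epha2 (mean 69.6) and Sema3b (mean 75.7).

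Growing axons steer by reading secreted and membrane-bound cues. Semaphorins signal through plexins, with neuropilins as the binding partners of most class 3 semaphorins. Ephrins signal through Eph receptor kinases and can also signal back into the cell that carries them. Netrins act through Dcc, neogenin and the UNC5 receptors, and Slits act through Robos. In the postnatal cortex the same families are known from dendritic spine number, synapse formation and the oligodendrocyte lineage, and many of their receptors act on Rac and actin. Cyfip2 is part of the WAVE complex, which carries Rac signals to actin assembly.

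Cyfip2 (chromosome 11, 46193850 to 46312859 in GRCm38) had a normalized count of 31933, 30496 and 27503 in WT and of 20959, 21237 and 18285 in Hetero. Every Hetero value was below every WT value. The log2 change was -0.57 ± 0.07 (SE), with a limma adjusted p of 0.31 over all genes and an exact two-sided permutation p of 0.1, the smallest that 3 against 3 samples allow. The adjusted p ranged from 0.00031 to 1.0 over the alternatives tried: it was 0.00031 with the main axis of residual spread in the model, 0.013 without sample 3 of both groups and 1.0 without Hetero sample 1. Column totals lay between 29879143 and 30735443 after the authors' scaling, and the number of reads behind each library is unknown. The layer marker lists were measured in full (12 of 12 upper-layer and 13 of 13 deep-layer genes). Sample 3 of each group stood apart from the other samples along the leading component of the residual spread, which held 33.2% of that spread.

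No guidance gene passed the limma test at a Benjamini-Hochberg adjusted p under 0.05: 0 were higher and 0 were lower in Hetero, as for all 14969 genes (0.0% in each direction). At an unadjusted p under 0.05 there were 7 of the 68 (10.3%), where the share over all tested genes was 3.83%. Of these, 3 were higher (Unc5d, Ntn4 and Sema7a) against 1.66% of all genes, and 4 were lower (Sema5a, Plxnb1, Epha7 and Sema6a) against 2.17%. The 3 Hetero values lay wholly above or wholly below the 3 WT values for 11 members (16.2%), where the share over all genes was 8.72%. These comprised 5 higher members (4.4% of all genes), adding Epha10 and Plxnd1 to the 3 above, and 6 lower members (4.32% of all genes), which were Sema5a, Sema6a, Sema6d, Epha7, Nrp2 and Dcc. The count of 7 moved when single libraries were left out, and so did the share over all genes. The count was 3 without WT sample 2 (2.979% of all genes) and 3 without WT sample 3 (2.819%). It was 9 without WT sample 1 (5.157%) and 10 without Hetero sample 3 (5.217%). Without Hetero samples 1 and 2 in turn it was 6 (3.761%) and 5 (3.16%). It was 9 without sample 3 of both groups (4.369% of all genes). The smallest limma adjusted p of any member was 1.00.

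**Figure D1:**
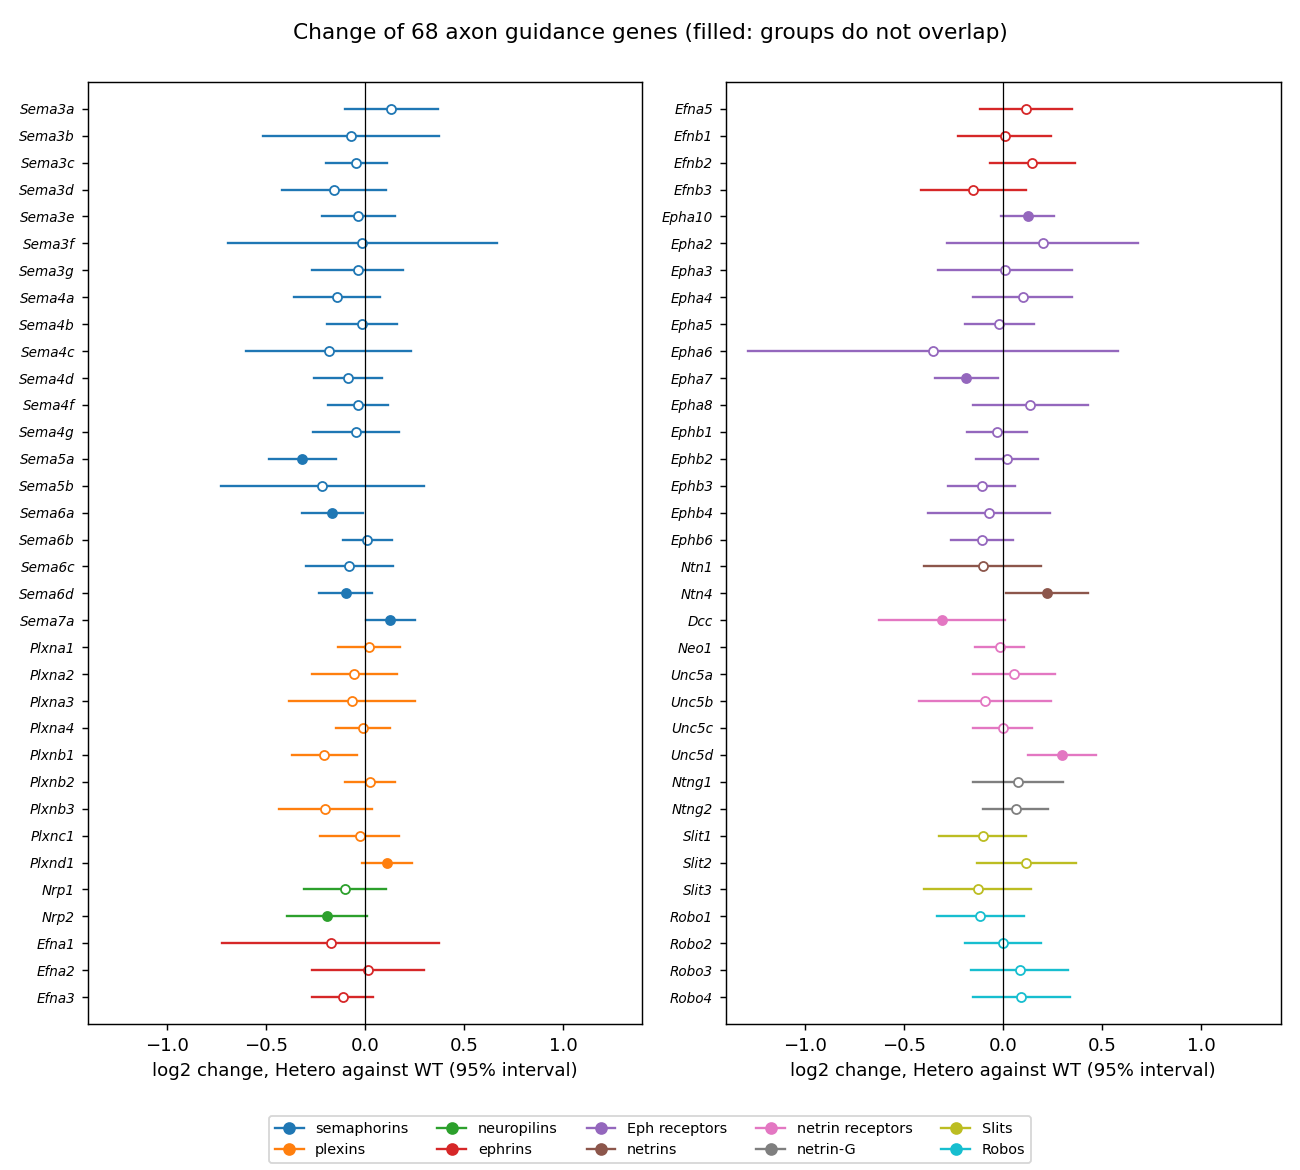
Log2 change of Hetero against WT on the log2(normalized count + 1) scale (x axis) for the 68 guidance genes (y axis), coloured by family; points are fitted changes, lines their 95% intervals, and filled points mark the 11 genes whose groups do not overlap. The changes lie between -0.35 (Epha6) and 0.30 (Unc5d), and most intervals cross 0.

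On the spread among these samples, the single-gene intervals bounded most members. For 61 of 68 (89.7%) the 95% interval, not adjusted over genes, excluded a change of 1.5-fold or more either way. It did so for 80.9% of all tested genes and 93.0% of protein-coding genes within the members' range of means. Since separate animals are not stated, the intervals may not bound an effect of genotype. The 7 members without this bound were Epha2, Epha6, Efna1, Dcc, Sema3f, Sema4c and Sema5b. The residual SD had a median of 0.12 on the log2 scale in the members and 0.11 in protein-coding genes within the members' range of means. Fitted values were lower in Hetero for 44 of the 68 genes (64.7%), against 50.9% of all genes. The median log2 change was -0.03 in the members and -0.002 over all genes. Without sample 3 of both groups 35 of the 68 were lower. Ligands and receptors had medians of -0.04 and -0.02. Of the 32 members given below with their values in every sample, 9 kept a change within 1.5 times of the full value when any 1 sample was left out: Sema5a, Sema6a, Sema6d, Sema7a, Plxnb1, Nrp2, Epha10, Ntn4 and Unc5d. The other 23 moved further, and 8 of them also took the other sign without 1 of the samples (Sema3b, Sema3f, Sema5b, Efna1, Epha6, Ntng1, Unc5a and Robo3).

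The promoters of 2 semaphorins that lay on opposite sides of WT are shown for reference, since Sema7a is the most abundant member per length and Sema5a has the smallest p of all members. Each stretch is the 250 bases before the RefSeq start on the plus strand of GRCm38.p6, with every CpG dinucleotide in capitals: chr15:32244563-32244812 for Sema5a and chr9:57939862-57940111 for Sema7a.
Sema5a: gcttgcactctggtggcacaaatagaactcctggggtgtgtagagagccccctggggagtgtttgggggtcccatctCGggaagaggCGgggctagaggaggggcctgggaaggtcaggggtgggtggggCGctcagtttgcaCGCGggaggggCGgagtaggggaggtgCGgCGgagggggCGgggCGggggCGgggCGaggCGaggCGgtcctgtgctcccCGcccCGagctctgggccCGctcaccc
Sema7a: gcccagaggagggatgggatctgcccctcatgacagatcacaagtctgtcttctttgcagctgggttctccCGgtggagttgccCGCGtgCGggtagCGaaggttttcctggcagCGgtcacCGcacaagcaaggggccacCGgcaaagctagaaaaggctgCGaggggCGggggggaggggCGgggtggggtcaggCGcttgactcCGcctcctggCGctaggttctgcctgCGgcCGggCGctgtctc
Both stretches hold 17 CpG dinucleotides, at a GC content of 72.0% and 66.4%. The GC box GGGCGG, read on both strands, occurs 5 times in the Sema5a stretch, with overlapping matches counted, and 2 times in that of Sema7a, and TATAAA and CACGTG occur in neither. RefSeq promoter windows of 300 bases were found for 58 of the 68 members. GGGCGG was in 71.6% of the members' 74 windows, 59.9% of those of tested genes and 35.7% of all windows, and TATAAA was in 2.70%, 7.39% and 13.6%. The median number of CpG dinucleotides per window was 20.5 in the members and 19.0 in tested genes.

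Among the semaphorins, 17 of 20 had a lower fitted value in Hetero, at a median log2 change of -0.06. That count was 12 of 20 without WT sample 3 and 14 of 20 without sample 3 of both groups. Sema5a (chromosome 15, 32244810 to 32696341), a membrane-bound semaphorin with thrombospondin repeats known to act on axons and on synapse number, had normalized counts of 1467, 1610 and 1736 in WT and of 1259, 1347 and 1249 in Hetero. Every Hetero value was below every WT value, and the WT values were spread more widely. The means were 1604 ± 134 and 1285 ± 54.1 (SD, n = 3 each), and the log2 change was -0.32 ± 0.08 (SE). Its paralog Sema5b read 465, 458 and 800 in WT and 547, 405 and 491 in Hetero, with WT sample 3 far above the rest.

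The class 6 semaphorins are transmembrane ligands of class A plexins. Sema6a (chromosome 18, 47235598 to 47368870), known from oligodendrocyte differentiation as well as from axon sorting, read 1164, 1146 and 1208 in WT and 984, 1054 and 1100 in Hetero, a log2 change of -0.17 ± 0.07 (SE). Sema6d (chromosome 2, 124089969 to 124667770), a ligand of plexin A1, read 1550, 1601 and 1641 in WT and 1499, 1523 and 1455 in Hetero, a log2 change of -0.10 ± 0.06 (SE). In both genes the groups were separated by a narrow gap. Sema6b, the most abundant of the class at 1123 normalized counts per kilobase of exon, differed by 0.01 and Sema6c by -0.08.

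Sema7a (chromosome 9, 57940112 to 57962865), the GPI-anchored semaphorin that binds plexin C1 and beta 1 integrins, lay in the other direction. It read 6412, 6734 and 6296 in WT and 6789, 6992 and 7469 in Hetero. The gap between WT sample 2 and Hetero sample 1 was narrow, and Hetero sample 3 was the highest. The means were 6481 ± 227 and 7083 ± 349 (SD, n = 3 each), and the log2 change was 0.13 ± 0.06 (SE). Its receptor gene Plxnc1 differed by -0.03 ± 0.09 (SE).

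The secreted class 3 semaphorins differed by -0.16 (Sema3d) to 0.13 (Sema3a), with 6 of 7 lower and no group separation. The lowest of all semaphorins per length, Sema3b, read 91.2, 81.3 and 61.2 in WT and 62.4, 77.2 and 81.1 in Hetero. The class 4 genes, ligands of class B plexins among others, were all 6 lower in fitted value, from -0.18 (Sema4c) to -0.01 (Sema4b), and each had overlapping groups. Over all genes the groups were separated for 8.72%, so sets as small as these classes may well hold none.

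Plexins carry a cytoplasmic GAP domain for Rap GTPases and are the signalling receptors of semaphorins. Plxnb1 (chromosome 9, 109095389 to 109119917), the receptor of Sema4d, read 3425, 3820 and 4029 in WT and 3125, 3161 and 3483 in Hetero. WT sample 1 lay below Hetero sample 3, so the groups overlapped. The log2 change was -0.21 ± 0.07 (SE), while Sema4d differed by -0.09 ± 0.08 (SE). Plxnb3, a class B plexin known from oligodendrocytes and the lowest plexin per length, read 732, 777 and 891 in WT and 630, 677 and 783 in Hetero, a log2 change of -0.20 ± 0.10 (SE). Sample 3 was the highest of each group, and the change was -0.12 without WT sample 3 and -0.29 without Hetero sample 3. Plxnb2, the remaining class B gene, differed by 0.03.

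Plxnd1 (chromosome 6, 115954811 to 115995005), the receptor of Sema3e and the highest plexin per length, read 5266, 5415 and 4881 in WT and 5564, 5716 and 5515 in Hetero. Its groups were separated, with a log2 change of 0.11 ± 0.06 (SE) that was 0.07 without WT sample 3, and Sema3e differed by -0.03. The class A plexins differed by -0.07 (Plxna3) to 0.02 (Plxna1). Of the neuropilins, Nrp2 (chromosome 1, 62703285 to 62818695), the coreceptor of Sema3f, read 693, 614 and 617 in WT and 540, 613 and 530 in Hetero. Hetero sample 2 nearly met the lowest WT sample. The log2 change was -0.19 ± 0.09 (SE), and Nrp1, the coreceptor of Sema3a, differed by -0.10 ± 0.09 (SE) with values of 947, 803 and 830 in WT and 883, 769 and 750 in Hetero.

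**Figure D2:**
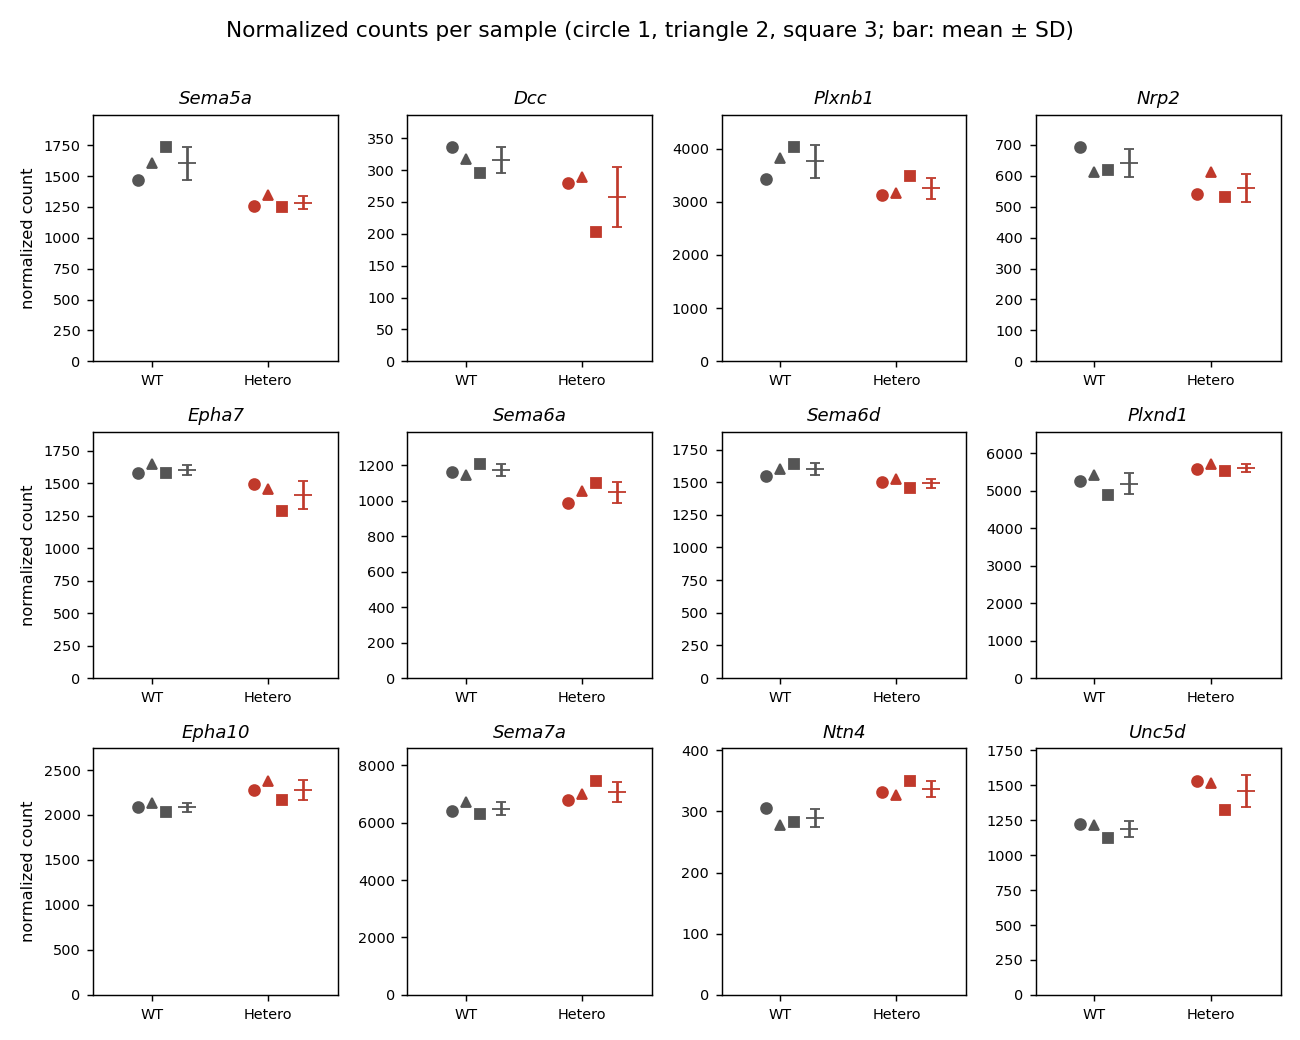
Normalized counts (y axis, from 0) per sample for the 12 guidance genes with an unadjusted limma p under 0.05 or with groups that do not overlap; symbols give the sample number and bars the mean ± SD of 3 samples. Sema5a and Unc5d, for example, separate WT from Hetero in opposite directions, while Plxnb1 overlaps between 3425 and 3483.

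Ephrins and Eph receptors had no gene with an unadjusted limma p under 0.05 besides Epha7 (0 of 7 and 1 of 13, against 3.83% of all genes). Epha7 (chromosome 4, 28813131 to 28967499), a receptor of A-type ephrins known from dendrite growth and topographic maps in the cortex, read 1578, 1652 and 1583 in WT and 1496, 1454 and 1290 in Hetero. The WT samples were close to each other and Hetero sample 3 was the lowest. The means were 1604 ± 41.2 and 1413 ± 109 (SD, n = 3 each), and the log2 change was -0.19 ± 0.07 (SE), or -0.12 without Hetero sample 3. Epha10 (chromosome 4, 124880899 to 124917800), an Eph receptor without kinase activity, read 2088, 2132 and 2036 in WT and 2277, 2383 and 2165 in Hetero, a log2 change of 0.12 ± 0.06 (SE).

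The highest Eph receptor per length was Ephb6, the other member that lacks kinase activity, with 6013, 6852 and 6909 in WT and 6316, 5709 and 6320 in Hetero. The lowest was Epha2, with 61.8, 63.8 and 66.1 in WT and 79.9, 53.6 and 92.4 in Hetero. Both overlapped between the groups, at log2 changes of -0.11 ± 0.07 and 0.20 ± 0.21 (SE). With 1 sample left out these ranged from -0.17 (without WT sample 1) to -0.06 (without Hetero sample 2) for Ephb6. For Epha2 they ranged from 0.04 (without Hetero sample 3) to 0.42 (without Hetero sample 2). Epha6 read 562, 592 and 463 in WT and 599, 541 and 227 in Hetero. Its change of -0.35 was the most negative of the 68, but 1 library decides it: without Hetero sample 3 the change was 0.09. Epha4, which binds ephrins of both classes and is the second most abundant Eph gene per length, differed by 0.10 ± 0.11 (SE).

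Of the 7 ephrins 4 had a higher and 3 a lower fitted value, and 0 had separated groups, against 8.72% of all genes. A set of 7 is too small to tell 0 apart from that share. Efna3, the highest per length, read 1386, 1432 and 1295 in WT and 1308, 1294 and 1201 in Hetero, a log2 change of -0.11 ± 0.07 (SE). Efna1, the lowest, read 75.8, 68.1 and 117 in WT and 63.2, 67.5 and 97.9 in Hetero, and sample 3 was the highest in both groups. The B-type ephrins, which span the membrane, differed by 0.009 (Efnb1), 0.15 (Efnb2) and -0.15 (Efnb3).

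Among the netrin receptors, Unc5d (chromosome 8, 28646717 to 29219636), which binds netrin 1 and FLRT2 and is known from neurons of the upper cortical layers, read 1222, 1215 and 1123 in WT and 1534, 1517 and 1326 in Hetero. All 3 Hetero values were above all WT values, and sample 3 was the lowest of each group. The means were 1187 ± 55.3 and 1459 ± 115 (SD, n = 3 each), a ratio of 1.23 with a 95% interval of 1.09 to 1.38 and a log2 change of 0.30 ± 0.08 (SE). The other UNC5 genes differed by 0.05 (Unc5a), -0.09 (Unc5b) and -0.003 (Unc5c). Unc5a, the highest netrin receptor per length, read 3674, 4129 and 3315 in WT and 4143, 3917 and 3463 in Hetero.

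Dcc (chromosome 18, 71253634 to 72351069), the attractive netrin receptor and the lowest of its family per length, read 336, 317 and 295 in WT and 280, 289 and 204 in Hetero. The groups were separated by a narrow gap, and Hetero sample 3 was the lowest. The log2 change was -0.31 ± 0.14 (SE) and -0.15 without Hetero sample 3. Neo1, which binds netrins and RGM proteins, differed by -0.02 ± 0.06 (SE).

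Ntn4 (chromosome 10, 93640681 to 93747207), a secreted netrin of basement membranes, read 306, 278 and 283 in WT and 333, 327 and 351 in Hetero. The groups did not overlap, with a log2 change of 0.22 ± 0.09 (SE). Ntn1 read 336, 256 and 342 in WT and 263, 299.5 and 301 in Hetero, a log2 change of -0.10 ± 0.13 (SE). The netrin-Gs, membrane-anchored synaptic ligands of the NGL proteins, differed by 0.07 (Ntng1: 478, 436 and 386 in WT, 435, 483 and 446 in Hetero) and by 0.06 (Ntng2: 1188, 1300.1 and 1266 in WT, 1355, 1208 and 1362 in Hetero).

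The Slits and Robos overlapped between the groups in all 7 genes, as did most genes tested (the groups did not overlap for 8.72% of all genes). Slit1, the highest Slit per length, read 1523, 1548 and 1900.5 in WT and 1689, 1482 and 1443 in Hetero, with WT sample 3 the highest. Slit2, the lowest, read 1361, 1389 and 1275 in WT and 1688, 1505 and 1210 in Hetero. Slit3, which lies 10.5 megabases from Cyfip2 and is the member nearest to it on chromosome 11, read 1405, 1187 and 1169.5 in WT and 1194, 1307 and 958 in Hetero, a log2 change of -0.13 ± 0.12 (SE) that was -0.0001 without Hetero sample 3 and -0.22 without Hetero sample 2.

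Robo3, the highest Robo per length, read 2912, 3987 and 3776 in WT and 3679, 3623 and 3911 in Hetero. Robo4, known from endothelial cells and the lowest of the family, read 306, 346 and 293 in WT and 346, 301 and 360.5 in Hetero. Robo1, which had the smallest limma p of the 4 Robos, read 1298, 1103 and 1174 in WT and 1236, 1095 and 975 in Hetero. Its log2 change of -0.12 ± 0.10 (SE) was -0.03 without Hetero sample 3 and -0.20 without Hetero sample 1. The 4 changes ranged from -0.12 (Robo1) to 0.09 (Robo4).

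Per kilobase of exon the members spanned from 14.9 normalized counts (Epha2) to 2056 (Sema7a), with a median of 133 against 141 over all tested genes. Sema7a, Ephb6 (1684), Sema6b (1123), Unc5a (905) and Epha4 (870) led the list. Next came Plxnd1 (739) and Plxna1 (676). At the low end were Epha2, Sema3b (15.9), Dcc (21.8) and Sema3d (23.8). In 10 of 10 families the highest and lowest members were the same when the longest protein-coding transcript served as the length.

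**Figure D3:**
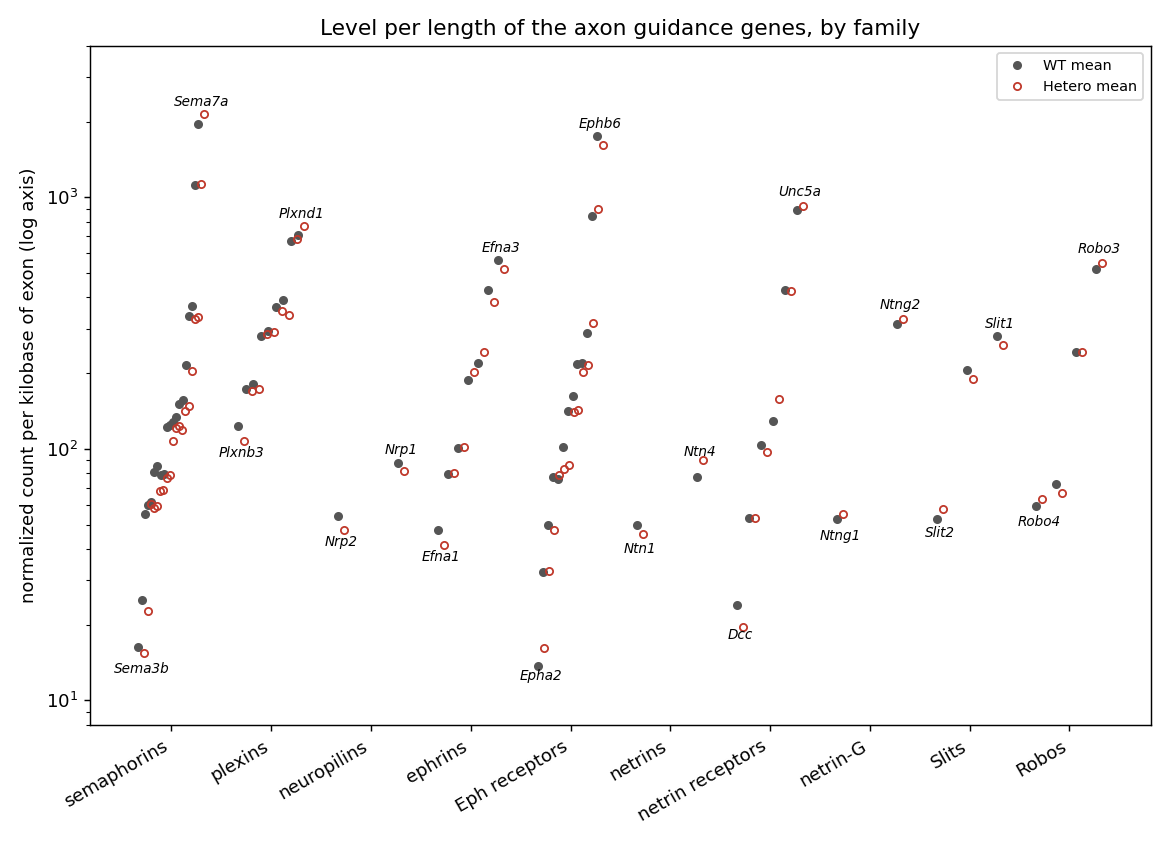
Mean normalized count per kilobase of exon (y axis, log scale) for each guidance gene in WT and Hetero, by family (x axis); each point is the mean of 3 samples, and the highest and lowest member of each family is named. Semaphorins span a 130-fold range and Eph receptors a 113-fold range, while WT and Hetero points of 1 gene lie close together.

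Marker lists of several cell types differed in summed level or direction beside some of these genes. Oligodendrocyte precursor markers had a lower fitted value in 11 of 12 tested genes (91.7%, against 50.9% of all genes), at a median log2 change of -0.18. An unadjusted limma p under 0.05 was found for 4 of the 12 (33.3%, against 3.83% of all genes). The summed level of the 12 lay between 19897 and 22110 in WT and between 17527 and 19101 in Hetero, without overlap, and no marker was at 0. This stood beside the values of Sema5a, Sema6a and Plxnb3, and its part in them was not tested. Mature oligodendrocyte markers were lower in 9 of 13 (median -0.06, 0 at an unadjusted limma p under 0.05) and their summed level overlapped, at 99688 to 159405 in WT and 105345 to 137848 in Hetero. Other glial lists went the same way. Microglia markers were lower in 13 of 13 (median -0.10, 1 at an unadjusted limma p under 0.05). Astrocyte markers were lower in 10 of 12 (median -0.07, 2 at an unadjusted limma p under 0.05). The summed levels of both overlapped, and their part in the results was not tested. In tissue RNA, fewer cells of a type and less RNA per cell cannot be told apart.

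Upper-layer markers were higher in 9 of 12 genes (median 0.08), with a summed level of 36480 to 39441 in WT and 38181 to 42498 in Hetero, beside the values of Unc5d. Of the 12, 4 had an unadjusted limma p under 0.05 (33.3%, against 3.83% of all genes), 3 higher and 1 lower. Deep-layer markers were lower in 11 of 13 (median -0.10), with 18147 to 19744 in WT and 16624 to 17896 in Hetero, without overlap. Of the 13, 2 had an unadjusted limma p under 0.05 (15.4%), 2 lower and 0 higher. Endothelial markers were lower in 6 of 12 (15472 to 15893 in WT, 15177 to 16090 in Hetero), and meningeal and fibroblast markers were higher in 11 of 12 (13038 to 23816 in WT, 17770 to 23345 in Hetero), beside the values of Ntn4. In these 2 lists 0 and 1 genes had an unadjusted limma p under 0.05 (0.0% and 8.33%). No marker of these lists was at 0, and their part in the results was not tested.

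Sample 3 of each group set a pattern across the members that did not follow genotype. It was the highest of its group in both groups for 17 of 68 members (25.0%, against 18.1% of all genes) and the lowest in both for 17 (25.0%, against 19.2%). Of the 17 high members 11 were ligands, among them Sema3f, Sema4c, Efna1 and Efnb3. Of the 17 low members 13 were receptors, among them all 4 class A plexins, Epha4, Epha5, Epha6, Dcc, Unc5a and Unc5d. Sema3f, the ligand of neuropilin 2, read 200, 336 and 424 in WT and 250, 274 and 404 in Hetero. Sample 3 exceeded the mean of the other 2 by 0.71 in WT and 0.62 in Hetero on the log2 scale. The low members had a median exon length of 7880 bases and a GC content of 51.6%, and the high members 5197 bases and 57.7%. Over all tested genes the low set had 6286 bases and 46.9%, and the high set 3440 bases and 54.1%. Among marker lists, sample 3 was highest in both groups for 11 of 13 mature oligodendrocyte markers (84.6%, against 18.1% of all genes). The same held for 8 of 12 oligodendrocyte precursor (66.7%), 8 of 13 microglia (61.5%) and 7 of 10 activity markers (70.0%). It held for 1 of 12 upper-layer markers (8.33%) and 0 of 12 meningeal and fibroblast markers (0.0%). The sample 3 pattern was looked for after the values were seen. The part of length, GC content, cell types or activity in it was not tested.

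**Figure D4:**
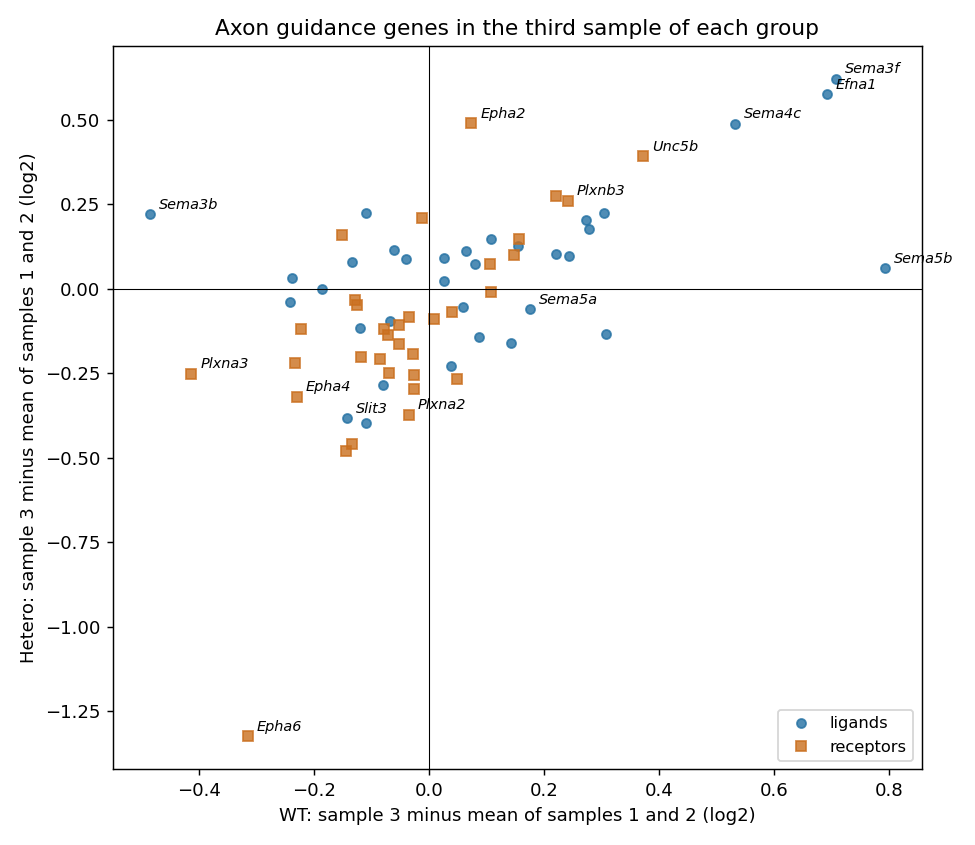
Difference between sample 3 and the mean of samples 1 and 2 of its group on the log2 scale, in WT (x axis) and Hetero (y axis); each point is 1 of the 68 guidance genes, circles ligands and squares receptors. In both groups sample 3 was above the mean of samples 1 and 2 for 22 genes, 15 of them ligands. It was below that mean in both groups for 28, 21 of them receptors. Epha6 lies apart at -1.32 in Hetero.

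Other genes of these pathways were taken from 3 lists, and 0 of their genes passed the adjusted threshold in limma. Of 50 intracellular effectors, such as collapsin response mediators, chimaerins, ephexin and the srGAPs, 1 (2.0%) had an unadjusted p under 0.05, against 3.83% of all genes. This was Dpysl3, a collapsin response mediator in the semaphorin pathway, with 1461, 1823 and 1725 in WT and 1310, 1404 and 1378 in Hetero, a log2 change of -0.29 ± 0.09 (SE). The list's median was -0.005, with 28 lower and 22 higher. The groups did not overlap for 2 of the 50 (4.0%, against 8.72% of all genes).

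Of 42 other cues and coreceptors 3 had an unadjusted p under 0.05 (7.14%, against 3.83% of all genes), and the groups did not overlap for 5 (11.9%, against 8.72%). Rgma, a repulsive ligand of neogenin, read 1190, 1169 and 1132 in WT and 1291, 1274 and 1380 in Hetero, a log2 change of 0.18 ± 0.06 (SE). Rtn4rl1, a Nogo receptor homolog, differed by 0.14 ± 0.06 (SE), and Ptprf, a receptor phosphatase, by -0.18 ± 0.06 (SE). Of 13 proteases known to cut guidance proteins 0 had an unadjusted limma p under 0.05 (against 3.83% of all genes), and fitted values were lower for 9 (69.2%, against 50.9%). Their median log2 change was -0.009, and the groups did not overlap for 0 of the 13 (0.0%, against 8.72% of all genes). Draxin, a netrin-binding cue on the second list, was not among the genes tested.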

How the data were processed

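Stranded poly(A) libraries were made with a TruSeq kit, per the labels' protocols. The authors deposited 1 table of normalized counts, read here as a signal because the values are not whole and column totals are nearly equal. Per the submitters' processing notes the build was GRCm38 and the tools were DESeq2 1.19.11, Salmon 0.11.2 and R 3.6.0, without roles. Annotation, scaling and gene filters are not stated there. The best step for 1 read divided 15.5% to 28.1% of low values (under 60) into whole multiples (within 0.02), so no count test was run. Of 17889 identifiers, 17875 matched GENCODE M21 (GRCm38).

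Values were analysed as log2(value + 1) for genes with a mean of at least 10, with limma 3.58.1 in R 4.3.3 (trend and robust eBayes, two-sided, Benjamini-Hochberg over 14969 genes, threshold 0.05). Adding 1 shrinks the log2 changes of low genes. Length is the union of exons. The procedure was run on simulated data with independent noise for each gene and sample. These lack the shared residual component of the real samples, so they cannot vouch for the fit here. Groups come from the sample titles, and no batch is labelled. Alternatives were no trend or robust fitting, TMM factors, median centring, other filters and pseudocounts, voom, a residual component, a replicate block, removal of GC and length trends (splines with 4 degrees of freedom) and left-out samples.

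The members and lists were chosen with earlier results of these data known. Values are given for members with an unadjusted p under 0.05 and, per family, for the highest and lowest per kilobase and the smallest p. Members with separated groups are named with their change, as are up to 4 genes of each pathway list with an unadjusted p under 0.05. Per-sample values of Sema5b, Plxnb3, Epha6, Sema3f and the separated members were added after they were seen. Marker lists whose direction is not given above (interneuron, striatum, activity) were lower in 3 of 11, 7 of 9 and 5 of 10 genes.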

Additional observations from a re-analysis of the deposited data

How the results depend on the processing

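Over 18 alternatives no guidance gene passed an adjusted p under 0.05 in limma, with a range of 0.334 to 1.0 for the 12 genes with an unadjusted p under 0.05 or separated groups. Each of these 12 kept its direction in all 18, which was largely fixed in advance. Separated groups, which 11 of the 12 had, stay separated when a sample is left out. The replicate block, the residual component and fitting without trend leave the change itself as it was. At an unadjusted p under 0.05 there were 4 members without trend and robust fitting (4.182% of all genes), 13 with the residual component (6.012%), and 3 to 10 when 1 sample was left out (2.819% to 5.217%). The median change of the members was -0.0139 with voom weights, -0.0203 with GC and length trends removed, -0.0119 without the third sample of both groups, and -0.0536 to -0.0125 when 1 sample was left out. Members with separated groups numbered 25 without the third sample of both groups (31.3% of all genes) and 14 to 21 when 1 sample was left out (16.254% to 20.937%); fewer samples separate more easily by construction. Scalings moved the median of all genes by less than 0.1. Per kilobase of the longest transcript, a length chosen after the data were seen, the members' median level was 195 against 133. Cyfip2 changed by -0.57 with an adjusted p of 0.0016 under the replicate block, -0.57 and 0.00031 with the residual component, and -0.56 and 0.013 without the third sample of both groups; the cause was not tested. The labels do not say whether same-numbered samples are paired. Their deviations from the group means correlated at -0.005, 0.004 and 0.23 for samples 1, 2 and 3. Differently numbered samples correlated at -0.18 to 0.18. These few values cannot decide whether the samples share a pairing or batch. The replicate block gave 8 members with an unadjusted limma p under 0.05 (5.264% of all genes) against 7 (3.83%). The depth of the libraries is unknown, so counting error was not separated from the spread between samples.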
